A study of Mus musculus with 6 samples.

Results

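Transcripts of the liver parenchyma were followed in RNA from sorted blood progenitors of the fetal liver. They are 38 genes, listed by name for this purpose and found in the gene counts by their mouse Ensembl identifiers. They encode secreted plasma proteins, the liver factor *Hnf4a*, a pair of liver enzymes and 3 epithelial structural proteins. All 38 were among the 38293 genes counted in each library. The cells were Lin- c-Kit+ fetal liver (FL) cells, the fraction that holds hematopoietic stem and progenitor cells, from C57BL/6 embryos at E14.5, with a single embryo for each library. 3 libraries were from wild type (wt) embryos and 3 from VavCre+ hnRNP L fl/fl embryos, called hnRNP L deficient. The sample labels name the wt embryos as wild type, whereas a figure legend of the study marks its wt RNA-Seq samples as L fl/fl. The Vav-Cre transgene of the hnRNP L deficient embryos removes the floxed *Hnrnpl* alleles from cells of the blood lineage, and hepatocytes are not its intended target. The sort is described in the study's methods, which state that the lineage antibodies used for FL cells did not include one against CD11b, whereas the sample labels name fetal liver cells as the source and the whole embryo as the tissue.

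The fetal liver is the main site of blood formation at this stage, and its stem and progenitor cells lie among hepatoblasts, the immature cells that give rise to hepatocytes and bile duct cells. Hepatoblasts and hepatocytes make most plasma proteins, among them albumin, alpha-fetoprotein, the apolipoproteins of lipoprotein particles and the clotting factors, and their mRNAs are among the most abundant of the organ. Transcription factors of the HNF and C/EBP families, including HNF4alpha, drive many of these genes together. A few of the members are also known outside the liver: *Apoe* and *C3* in macrophages, and *Krt8*, *Krt18* and *Cdh1* in many epithelia.

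The targeted gene was examined first. Levels are given as CPM, the reads of a gene for each 1000000 reads of the normalized library size, for replicates 1, 2 and 3 in this order. *Hnrnpl* had 552, 531 and 527 CPM in wt and 242, 288 and 269 CPM in hnRNP L deficient libraries, with a log2 fold change of -1.01 (SE 0.088, adjusted p = 0.0072 by edgeR's quasi-likelihood test with Benjamini-Hochberg adjustment over all genes tested). Depth was between 55952160 and 76157226 reads on genes for each library, at which 3 reads correspond to between 0.0402 and 0.054 CPM. *Kit*, the receptor used for the sort, had 522 CPM in the mean of the wt libraries and 341 CPM in the mean of the hnRNP L deficient libraries, and was itself called lower (log2 fold change -0.62, SE 0.16, edgeR adjusted p = 0.04).

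The liver transcripts were at lower levels in the hnRNP L deficient libraries, although few of them passed the test singly. Summed over all 38, they amounted to 334, 527 and 499 CPM in wt and to 122, 179 and 182 CPM in hnRNP L deficient libraries, so that the groups did not overlap and the hnRNP L deficient mean was 35.5% of the wt mean. All 33 members that passed the expression filter had a negative log2 fold change, from -2.90 for *Cdh1* to -0.31 for *Apom*, with a median of -1.52, against a median of -0.03 over the 14396 genes tested. 5 members were called lower by edgeR at an adjusted p-value under 0.05 and 0 were called higher, where 9.85% of all genes tested were called lower and 9.32% higher. At an unadjusted p-value under 0.05, 26 of the 33 were lower and 0 higher, against 20.1% of all genes lower. In 28 of the 33 the hnRNP L deficient libraries all lay below the lowest wt library and in 0 they all lay above the highest, and each of these positions held for 22.7% of all genes tested. A lower level of a transcript in sorted cells can come from fewer cells of a type that carry it or from less of it in each cell. It can also come from less RNA carried over from cells outside the sort. These cannot be told apart here.

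**Figure D1:**
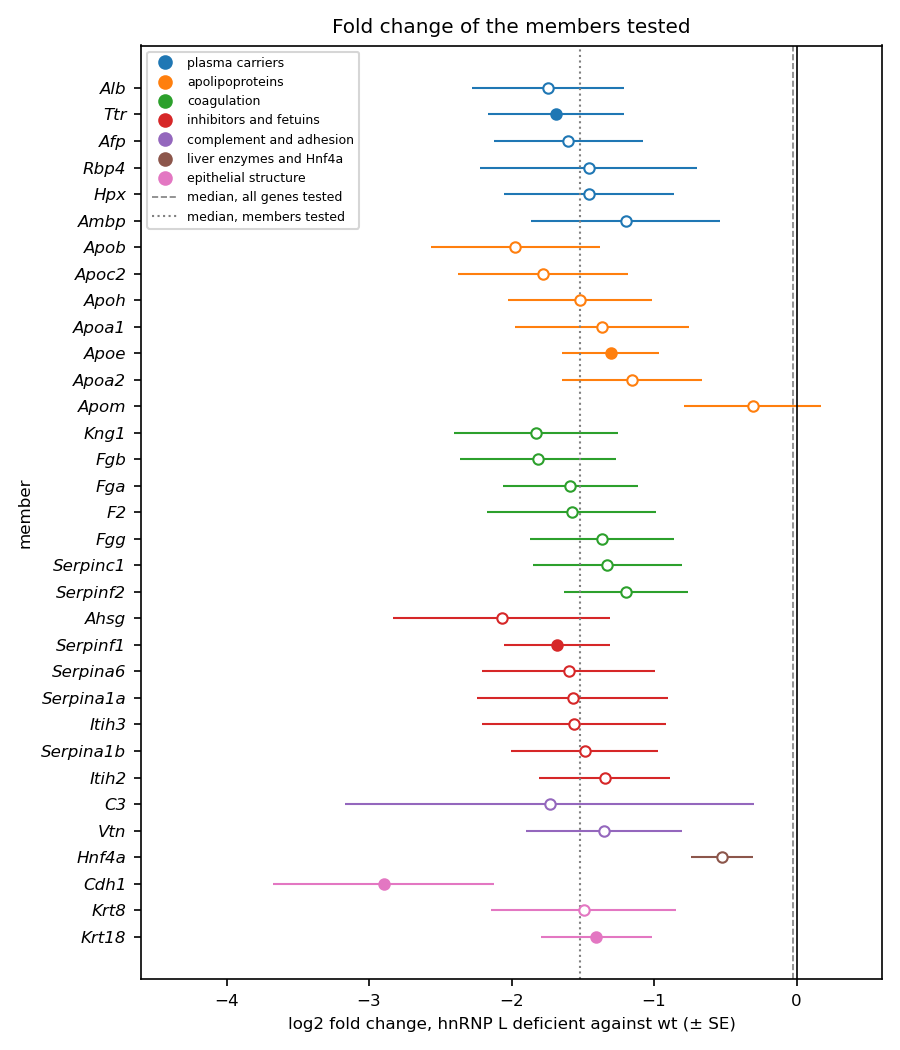
Log2 fold change of the 33 members tested, hnRNP L deficient against wt, with bars of 1 SE and colours by role. Filled points are the 5 members called lower by edgeR, the dashed line is the median of all genes tested at -0.03 and the dotted line that of the members at -1.52. Most members lie around the dotted line, and *Apom* and *Hnf4a* lie closest to 0.

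The number of calls depended on the tool and on single libraries. DESeq2 called 22 members lower and limma-voom with sample weights called 20, with 0 higher by either. Of all genes that each tested, DESeq2 called 10.7% lower and limma-voom 19.3%. With edgeR, 8 members were called without wt replicate 1 and 12 without wt replicate 2. Those fits called 16.8% and 12.7% of all genes tested lower. Without wt replicate 3, 0 were called with 7 lower at an unadjusted p-value under 0.05, and without hnRNP L deficient replicate 1, 2 or 3, 0 were called with 19, 19 and 20 lower at that level. In these last 4 fits, between 0 and 2 genes in all were called lower. A member could also pass the filter through its wt values alone, since the filter asked for at least 0.15 CPM in 3 libraries. This was so for *Rbp4*, *Apoc2*, *F2*, *Serpina1a* and *Krt8*, so the counts over the tested members are a description. Of the 27 members with a mean of at least 1 CPM over all 6 libraries, 27 had a negative log2 fold change and 5 were called.

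Levels of the members were compared per length, as the mean CPM over the 6 libraries for each kilobase (kb) of merged exon. *Apoe* had the highest at 53.1 CPM per kb, followed by *Alb* at 20.7, *Afp* at 14.8 and *C3* at 6.43 CPM per kb. *Apoa2* and *Apoa1* followed at 4.40 and 4.01 CPM per kb, and the remaining tested members lay between 0.103 CPM per kb for *Serpinc1* and 2.66 CPM per kb for *Serpina6*. *Apoe*, *Alb*, *Afp* and *C3* together made up between 74.5% and 86.8% of the summed CPM of the 38 members in each library. Without *Apoe* and *C3*, the sum of the other 36 members was 231, 166 and 326 CPM in wt and 35.8, 105 and 100.03 CPM in hnRNP L deficient libraries. The hnRNP L deficient mean of that sum was 33.4% of the wt mean, but wt replicate 2 was now the lowest of the wt libraries and not the highest.

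**Figure D2:**
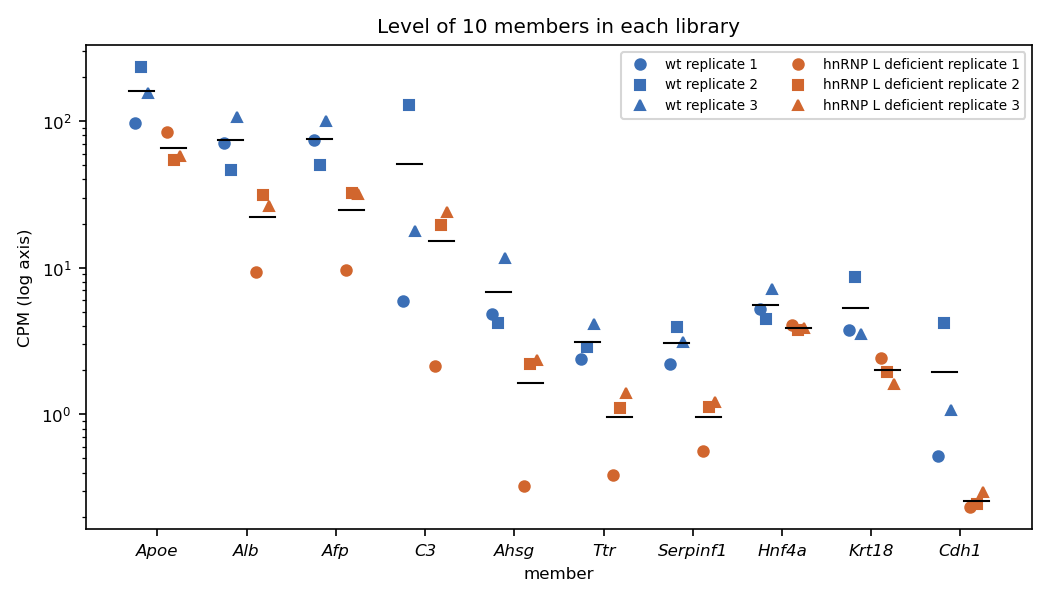
Level of 10 members in each library in CPM on a log axis, with wt in blue, hnRNP L deficient in orange, a symbol for each replicate and a black line at each group mean. *Alb*, *Afp*, *Ahsg*, *Ttr* and *Serpinf1* were lowest in hnRNP L deficient replicate 1, while *C3* overlapped between the groups.

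Among the plasma carriers, *Alb* (GRCm38, chromosome 5, 90460897 to 90476602), which encodes the main carrier and osmotic protein of plasma, had 70.7, 46.2 and 107 CPM in wt and 9.32, 31.4 and 26.2 CPM in hnRNP L deficient libraries. The groups did not overlap, and hnRNP L deficient replicate 1 was far below the other hnRNP L deficient libraries. Its log2 fold change was -1.74 (SE 0.53), which did not pass the test (edgeR adjusted p = 0.073). *Afp*, its fetal counterpart and neighbor on the same strand (chromosome 5, 90490737 to 90508907), had 74.6, 50.1 and 100.3 CPM in wt and 9.61, 32.6 and 32.0 CPM in hnRNP L deficient libraries, nearly the same values as *Alb* in the same order. *Ttr*, the thyroid hormone carrier transthyretin, fell from 2.38, 2.87 and 4.11 CPM in wt to 0.388, 1.10 and 1.41 CPM in hnRNP L deficient libraries (log2 fold change -1.69, SE 0.48, edgeR adjusted p = 0.049). It was the only carrier called. *Rbp4*, which carries retinol, *Ambp*, the precursor of alpha-1-microglobulin, and *Hpx*, which binds free heme, had log2 fold changes of -1.46, -1.20 and -1.45, and the groups overlapped for *Ambp* and *Hpx*.

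Of the 9 apolipoprotein genes, 7 were tested and 1 was called lower. *Apoe* (chromosome 7, 19696109 to 19699188), a ligand of lipoprotein receptors that macrophages make as well, had 97.5, 232 and 155 CPM in wt and 84.3, 54.5 and 57.5 CPM in hnRNP L deficient libraries. It was highest in wt replicate 2, and hnRNP L deficient replicate 1 was its highest, not its lowest, hnRNP L deficient library. It fell by 1.31 on the log2 scale (SE 0.34, edgeR adjusted p = 0.048). *Apob* (chromosome 12, 7977648 to 8016835), the structural protein of very low density lipoprotein, had 10.6, 3.18 and 9.45 CPM in wt and 0.792, 2.52 and 2.58 CPM in hnRNP L deficient libraries. The lowest wt library was close to the hnRNP L deficient ones, and its log2 fold change of -1.97 (SE 0.59) did not pass the test (edgeR adjusted p = 0.06). *Apoa1* and *Apoa2*, the main proteins of high density lipoprotein, *Apoc2*, the activator of lipoprotein lipase, and *Apoh*, which binds phospholipids, had log2 fold changes between -1.78 and -1.16. *Apom*, a carrier of sphingosine-1-phosphate, had the value closest to 0 of all the members, -0.31 (SE 0.48), with overlapping groups, and 0.24 without wt replicate 3. *Apoa4* had 0 reads in all 6 libraries, which allows up to 0.00764 CPM, and *Apoc3* had 2 reads. These limits cover counting error only.

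All 7 coagulation genes were tested, and the groups did not overlap in 7 of 7. Still, 0 were called by edgeR, with 7 at an unadjusted p-value under 0.05, and DESeq2 and limma-voom called 6 each. *Kng1* (chromosome 16, 23057865 to 23082078), which encodes kininogen, the source of bradykinin, had 1.53, 1.12 and 2.56 CPM in wt and 0.217, 0.887 and 0.362 CPM in hnRNP L deficient libraries. Its log2 fold change was -1.83 (SE 0.58, edgeR adjusted p = 0.065). *Serpinf2*, the plasmin inhibitor alpha-2-antiplasmin (chromosome 11, 75431732 to 75439591), had 4.41, 3.28 and 6.19 CPM in wt and 0.916, 2.48 and 2.65 CPM in hnRNP L deficient libraries. The log2 fold change of *Serpinf2* was -1.20 (SE 0.44, edgeR adjusted p = 0.091), the value closest to 0 in this group. The genes of the fibrinogen chains, *Fga*, *Fgb* and *Fgg*, which lie next to each other on chromosome 3 between 83007724 and 83049863, had log2 fold changes of -1.59, -1.81 and -1.37. *F2*, which encodes prothrombin, and *Serpinc1*, which encodes antithrombin, had -1.58 and -1.33.

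7 of the 8 genes of protease inhibitors and fetuins were tested, and in all 7 the groups did not overlap. *Serpinf1* (chromosome 11, 75409769 to 75422701), which encodes pigment epithelium-derived factor and lies beside *Serpinf2*, fell from 2.21, 3.93 and 3.12 CPM in wt to 0.559, 1.12 and 1.21 CPM in hnRNP L deficient libraries (log2 fold change -1.68, SE 0.37, edgeR adjusted p = 0.027). It had the smallest p-value of the members, and wt replicate 2 was its highest library. *Ahsg* (chromosome 16, 22891277 to 22899449), the mineral-binding fetuin-A, had 4.81, 4.18 and 11.6 CPM in wt and 0.326, 2.22 and 2.36 CPM in hnRNP L deficient libraries. Its log2 fold change of -2.07 (SE 0.76) was the largest of this group and did not pass the test (edgeR adjusted p = 0.1). *Serpina6*, which encodes the corticosteroid carrier transcortin (chromosome 12, 103646630 to 103657212), had 8.46, 3.53 and 9.14 CPM in wt and 0.73, 2.78 and 3.46 CPM in hnRNP L deficient libraries, with a log2 fold change of -1.60 (SE 0.61, edgeR adjusted p = 0.11). *Serpina1a* and *Serpina1b*, near-identical copies of the alpha-1-antitrypsin gene between which reads could have been split or lost, had -1.57 and -1.49. *Itih2* and *Itih3*, the heavy chains of inter-alpha-trypsin inhibitor, had -1.35 and -1.56. *Fetub*, which encodes fetuin-B and follows *Ahsg* on chromosome 16, had 1 read in all libraries.

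*C3* (chromosome 17, 57203970 to 57228136), the central component of the complement cascade, had another order of the libraries than most members. It had 5.98, 129 and 17.8 CPM in wt and 2.14, 19.5 and 24.2 CPM in hnRNP L deficient libraries. The groups overlapped, and wt replicate 2 stood far above every other library. Its log2 fold change of -1.73 (SE 1.43, edgeR adjusted p = 0.43) rested on that library and was 0.36 without it (edgeR adjusted p = 0.86, and between 0.229 and 0.96 over all alternative fits). *Vtn*, which encodes the adhesion protein vitronectin, did not overlap between groups and had a log2 fold change of -1.35 (SE 0.55, edgeR adjusted p = 0.12). Of these 2 genes 0 were called by edgeR, with 1 at an unadjusted p-value under 0.05, and DESeq2 called 0 and limma-voom 1.

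Of the liver enzymes, *Cps1*, the entry enzyme of the urea cycle, had 6, 4 and 9 reads in wt and 0 reads in each hnRNP L deficient library, which allows up to 0.0147 CPM over that group. *Mat1a*, the hepatic synthase of S-adenosylmethionine, had 20, 3 and 10 reads in wt and 0, 2 and 0 reads in hnRNP L deficient libraries. Neither passed the filter. *Hnf4a* (chromosome 2, 163506808 to 163572910) was tested and had 5.20, 4.45 and 7.11 CPM in wt and 4.04, 3.78 and 3.87 CPM in hnRNP L deficient libraries. The groups lay close together without overlap, and hnRNP L deficient replicate 1 was here the highest of its group. The log2 fold change of *Hnf4a* was -0.52 (SE 0.22, edgeR adjusted p = 0.13, unadjusted p = 0.046), and of the other tools DESeq2 called 0 and limma-voom 1 of these 3 genes, the latter being *Hnf4a*.

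Of the 3 epithelial genes, 2 were called lower. *Cdh1* (chromosome 8, 106603351 to 106670246), which encodes the adhesion molecule E-cadherin, fell from 0.522, 4.20 and 1.07 CPM in wt to 0.233, 0.245 and 0.295 CPM in hnRNP L deficient libraries (log2 fold change -2.90, SE 0.77, edgeR adjusted p = 0.042). The hnRNP L deficient libraries were nearly equal, whereas wt replicate 2 was well above the other wt libraries. Without wt replicate 2 the log2 fold change of *Cdh1* was -1.63 (edgeR adjusted p = 0.042), and with limma-voom and all libraries it was -2.01. *Krt18* (chromosome 15, 102028180 to 102032027), an intermediate filament protein of simple epithelia, fell from 3.74, 8.59 and 3.52 CPM in wt to 2.41, 1.96 and 1.62 CPM in hnRNP L deficient libraries (log2 fold change -1.40, SE 0.39, edgeR adjusted p = 0.047). *Krt8*, its filament partner and neighbor on chromosome 15, had much lower levels, between 0.124 and 1.05 CPM, with overlapping groups and a log2 fold change of -1.49 (SE 0.65, edgeR adjusted p = 0.14). Over the 5 members called, the call was lost when wt replicate 3 or any single hnRNP L deficient library was left out, as was nearly every call of the whole data set. The call of *Apoe* was also lost without wt replicate 2 (log2 fold change -0.95, edgeR adjusted p = 0.054).

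The members varied together from library to library, within the genotypes as well as between them. Of the 35 members with at least 10 reads in all, wt replicate 3 had the highest level in 25, wt replicate 2 in 7 and wt replicate 1 in 3. hnRNP L deficient replicate 1 had the lowest level in 32, tied at 0 reads with other hnRNP L deficient libraries for *Cps1* and *Mat1a*, the exceptions being *Apoe* and *Hnf4a*, lowest in replicate 2, and *Krt18*, lowest in replicate 3. Of all genes tested, wt replicate 3 was the highest library in 15.3% and hnRNP L deficient replicate 1 the lowest in 19.7%. Within the genotypes, wt replicate 3 was the highest wt library in 25 of the 35 members and in 26.4% of all genes tested. hnRNP L deficient replicate 1 was the lowest of its genotype in 32 of the 35 members and in 39.8% of all genes tested. For each member the level in a library was then written as log2(CPM + 0.1) less its mean over the 6 libraries. The median of these deviations over the tested members was 0.60, 0.34 and 1.20 in wt replicates 1 to 3 and -1.70, -0.21 and -0.30 in hnRNP L deficient replicates 1 to 3. Measured against the mean of its own genotype, hnRNP L deficient replicate 1 was at -0.93, and wt replicates 1 to 3 were at -0.12, -0.44 and 0.48. In the sample labels the embryo numbers of hnRNP L deficient replicates 2 and 3 begin alike, as do those of hnRNP L deficient replicate 1 and wt replicate 1, and what a shared beginning stands for is not given.

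**Figure D3:**
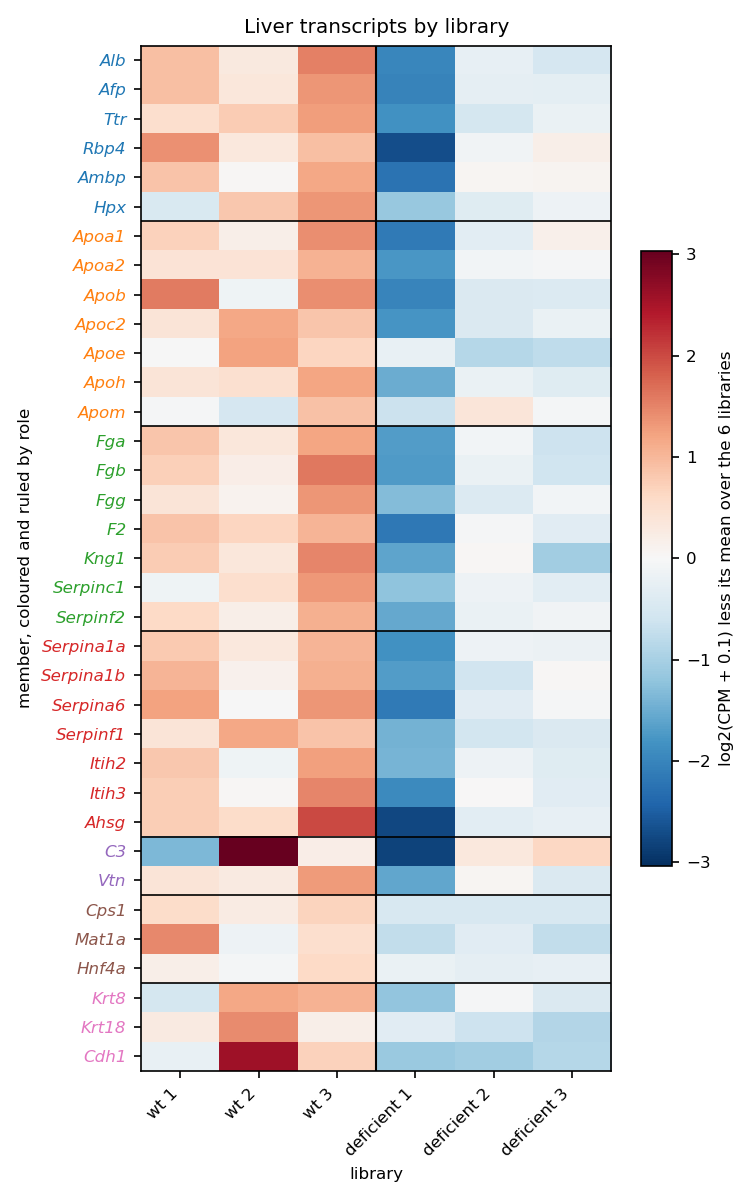
Deviation of each member with at least 10 reads from its own mean over the 6 libraries, as log2(CPM + 0.1), with libraries in columns and members in rows grouped by role. Most rows repeat the same order, highest in wt replicate 3 and lowest in hnRNP L deficient replicate 1, and *C3*, *Cdh1*, *Apoe* and *Krt18* are darkest in wt replicate 2.

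The spread that the members shared was larger than what was left to each. The standard deviation (SD) of a tested member over the 6 libraries had a median of 1.05 on the log2(CPM + 0.1) scale, and 0.39 after the median deviation of the other members was subtracted in each library. It became smaller in 29 of 33, the exceptions being *Apoe*, *Apom*, *Hnf4a* and *Krt18*. The Pearson correlation of a member with the median of the others was over 0.9 in 24 of 33 and ranged from 0.44 for *Krt18* to 0.996 for *Ahsg*. Of the 14363 other genes tested, 1.71% reached 0.9 with the median of the members. These correlations span 6 libraries that also differ in genotype and share their normalization, and they describe these libraries only.

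The ratio of each member to *Alb* in the same library does not depend on the library size, and it was used to show the proportions of the liver transcripts. *Alb* itself varied 11.5-fold between the libraries. The *Afp* to *Alb* ratio of reads stayed between 0.934 and 1.22 in the 6 libraries, and that of *Fgb* to *Alb* between 0.0301 and 0.0376. In 19 of the 32 other tested members the SD of the log2 ratio to *Alb* was under 0.5, with a median of 0.39 over all 32, of which counting error alone gave a median of 0.18. It was over 1 in 4, *Apoe*, *C3*, *Krt18* and *Cdh1*. Of the members called lower, *Apoe*, *Krt18* and *Cdh1* were thus among these, whereas the others called, *Ttr* and *Serpinf1*, had an SD of 0.35 and 0.60. *C3* was between 0.0845 of *Alb* in wt replicate 1 and 2.78 of it in wt replicate 2. *Apoe* stood at 9.04 times *Alb* in hnRNP L deficient replicate 1 and 5.03 times *Alb* in wt replicate 2, but only between 1.38 and 2.19 times *Alb* in the other libraries. For *Hnf4a*, hnRNP L deficient replicate 1 was also highest, at 0.433 of *Alb* against 0.0663 to 0.148 of it in the others.

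**Figure D4:**
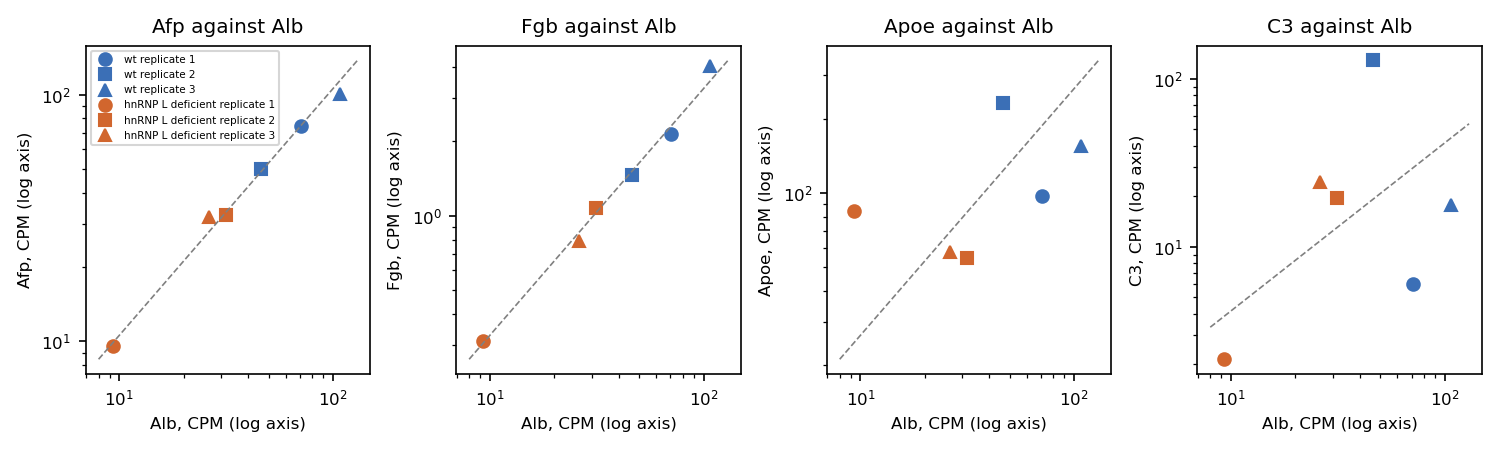
CPM of *Afp*, *Fgb*, *Apoe* and *C3* against the CPM of *Alb* in the same library, on log axes, with wt in blue and hnRNP L deficient in orange. The dashed line is a constant ratio to *Alb*, the geometric mean of the 6 libraries. *Afp* and *Fgb* follow it in every library, while *Apoe* and *C3* depart from it, both lying above it in wt replicate 2 and below it in wt replicates 1 and 3.

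The proximal promoters of 3 members that kept a constant ratio to each other, *Alb*, *Afp* and *Fgb*, and of *C3*, which did not, are shown to set the sequences beside these patterns. They are the 150 bases before the RefSeq start in GRCm38.p6, written 5′ to 3′ on the strand of the gene. They lie at chr5:90460720-90460869 on the plus strand for *Alb*, chr5:90490564-90490713 on the plus strand for *Afp*, chr3:83049864-83050013 on the minus strand for *Fgb* and chr17:57228137-57228286 on the minus strand for *C3*. Capitals mark the letters GTTAAT, part of the palindromic HNF1 motif, and TTGCNNAA, a C/EBP motif, on either strand.
Alb: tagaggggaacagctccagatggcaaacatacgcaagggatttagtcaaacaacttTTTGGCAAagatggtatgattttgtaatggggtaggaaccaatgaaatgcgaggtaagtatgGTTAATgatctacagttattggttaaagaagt
Afp: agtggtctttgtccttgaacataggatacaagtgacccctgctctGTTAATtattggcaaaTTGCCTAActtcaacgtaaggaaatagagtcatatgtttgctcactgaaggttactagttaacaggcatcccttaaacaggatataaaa
Fgb: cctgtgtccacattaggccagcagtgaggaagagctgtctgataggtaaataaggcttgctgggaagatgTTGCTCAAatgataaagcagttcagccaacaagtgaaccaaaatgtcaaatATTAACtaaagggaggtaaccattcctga
C3: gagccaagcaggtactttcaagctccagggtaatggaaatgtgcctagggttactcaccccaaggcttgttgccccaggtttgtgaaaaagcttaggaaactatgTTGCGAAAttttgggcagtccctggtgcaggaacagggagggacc
Both motifs were found in the windows of *Alb*, *Afp* and *Fgb*, and they did not overlap. The window of *C3* held the C/EBP letters and not those of HNF1. RefSeq windows from 250 bases before to 50 bases after a start were at hand for 31 of the 38 members. GTTAAT was present in 11 of these 31 genes, among them *Apoe*, *Fga*, *F2*, *Vtn* and *Hnf4a*, and in 8.24% of all 27025 genes with such windows. TTGCNNAA was present in 14 of the 31, among them *Apob*, *Ahsg*, *Hpx* and *Serpinc1*, and in 12.2% of all genes. *Apoe* thus held the HNF1 letters although its ratio to *Alb* was not constant. A match of letters does not show that a factor binds there, and these motifs were chosen with the expression values known.

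Reads on exon bins, the stretches of exon that the same transcripts share, were used to see whether the counts of a member came from the whole transcript. Such counts were used from 5 libraries, all but hnRNP L deficient replicate 1. *Alb* and *Afp* had at least 10 reads on 15 of 15 bins in each of the 5 libraries, and *Ahsg* and *Krt18* on 7 of 7. *C3* had them on 50 of 51 bins in each library but wt replicate 1, where 33 bins did. In *Hnf4a* a single bin, number 16 of 17, held between 58.7% and 67.8% of its bin reads in each library. The fullest bin of *Fga*, number 5 of 7, held between 41.8% and 66.0%, and that of *Apoa1*, number 7 of 7, between 34.5% and 56.8%. The lengths of the bins were not considered. *Cdh1* had at least 10 reads on 13 of 21 bins in wt replicate 2, on 5 in wt replicate 3 and on 0 in the other 3 libraries, so its fold change rests on few reads. *Apoc2* shares its unit of exon bins with another gene, and exons of 7 members overlap those of another gene in the annotation, so that their reads are less certain. These are *Ahsg*, *Apoa4*, *Apoc2*, *Apoh*, *Fgg*, *Krt8* and *Serpinc1*.

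Further hepatocyte genes, which were no members, were listed to see how far the pattern went. Of 22 tested genes listed under other secreted proteins, 5 were called lower and 1 higher by edgeR, with a median log2 fold change of -1.64. Among the lower ones were *Apoc1*, *Dlk1*, *Gc* and *Trf*, and the higher one was *Rbp2*, a retinol-binding protein best known from the intestine. *Rbp2* was at low levels, with a mean of 0.098 CPM in wt and 0.428 CPM in hnRNP L deficient libraries. *Gc*, the vitamin D carrier, had 1.19, 0.717 and 1.35 CPM in wt and 0.186, 0.49 and 0.375 CPM in hnRNP L deficient libraries (log2 fold change -1.62, SE 0.46, edgeR adjusted p = 0.048), in the same order as *Alb*. *Hp*, the hemoglobin-binding haptoglobin, had 5.72, 159 and 15.5 CPM in wt and 2.14, 13.2 and 13.5 CPM in hnRNP L deficient libraries, an order that resembled *C3* more than *Alb* (log2 fold change -2.64, SE 1.50, edgeR adjusted p = 0.26, and -0.15 without wt replicate 2). Of 14 tested genes for liver enzymes and receptors (median log2 fold change -1.05), 1 was lower, *Cyp27a1* of bile acid synthesis, and 1 higher. The latter was *Ass1*, the argininosuccinate synthase that many cell types make, with 71.7, 53.2 and 53.1 CPM in wt and 134, 87.3 and 98.2 CPM in hnRNP L deficient libraries (log2 fold change 0.84, SE 0.19, edgeR adjusted p = 0.029). Of 16 further liver transcription factors only 4 passed the filter, with a median log2 fold change of -1.30. Of these, 0 were called by edgeR, with 2 at an unadjusted p-value under 0.05, and 1 was called by DESeq2 and 1 by limma-voom. *Cebpa*, a factor of hepatocytes and of myeloid progenitors, had 12.9, 66.4 and 23.0 CPM in wt and 6.26, 9.74 and 8.64 CPM in hnRNP L deficient libraries (log2 fold change -2.05, SE 0.63, edgeR adjusted p = 0.072, and -1.13 with adjusted p = 0.025 without wt replicate 2).

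Lists of genes known from other cells of the fetal liver, and a list for the sorted stem and progenitor cells, are given beside the members by their counts. Whether a transcript of these lists came from the sorted cells or from other cells was not tested. Of 15 macrophage genes tested, 5 were called lower and 0 higher (median log2 fold change -1.53), with a summed level between 372 and 626 CPM in wt and between 298 and 375 CPM in hnRNP L deficient libraries. Their receptor *Csf1r* had 11.3, 69.3 and 27.6 CPM in wt and 2.08, 4.60 and 4.80 CPM in hnRNP L deficient libraries (log2 fold change -3.24, SE 0.76, edgeR adjusted p = 0.039, and -2.35 with adjusted p = 0.022 without wt replicate 2). It was highest in wt replicate 2, as were 7 of the 35 members, among them *C3*, *Cdh1*, *Apoe* and *Krt18*. This position held for 31.7% of all genes tested. Lysozyme, *Lyz2*, had 16.2, 167 and 36.6 CPM in wt and 4.84, 38.04 and 45.5 CPM in hnRNP L deficient libraries, and the ratio of *C3* to *Lyz2* stayed between 0.368 and 0.768 where that of *C3* to *Alb* varied 32.9-fold. This pair was chosen after its values were seen. Of 11 endothelial genes, 2 were lower (median -0.97), of 7 stellate and mesenchymal genes 3 were lower and 1 higher (median -0.82), and of 13 stem and progenitor genes 8 were lower (median -0.95). Of 15 erythroid genes 1 was lower (median -0.06), with a summed level between 2864 and 3286 CPM in wt and between 2499 and 3489 CPM in hnRNP L deficient libraries. Of 4 tested genes of hepatoblasts and bile duct epithelium 0 were called by edgeR, with 0 at an unadjusted p-value under 0.05 and 1 called by DESeq2 and 0 by limma-voom. The median log2 fold change of these 4 genes was -1.47, with 3 negative and 1 positive. The part of the other cell types in the lower level of the liver transcripts was not tested.

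**Figure D5:**
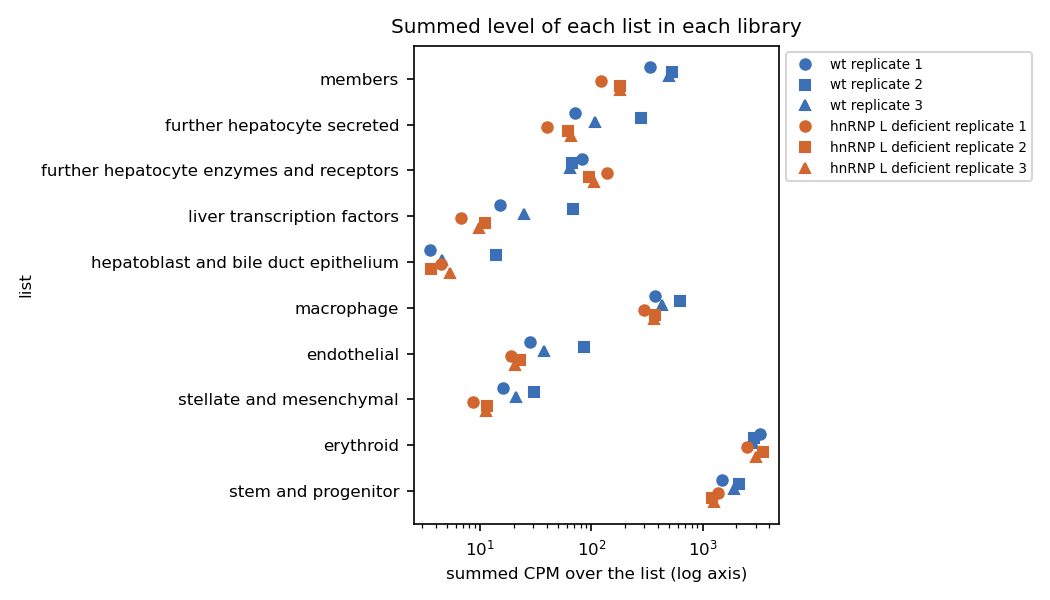
Summed CPM of the 38 members and of 9 other lists in each library, on a log axis, with wt in blue and hnRNP L deficient in orange and a symbol for each replicate. The members lie between 122 and 182 CPM in hnRNP L deficient and between 334 and 527 CPM in wt libraries. In every list but the erythroid list and that of liver enzymes and receptors, wt replicate 2 is the highest library. It is also the highest for 31.7% of all genes tested.

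Outside all lists, the 10 genes with a mean of at least 1 CPM whose log2(CPM + 0.1) over the 6 libraries followed the median of the members most closely had Pearson correlations between 0.98 and 0.99. The first was *Pzp*, a plasma protease inhibitor of the alpha-2-macroglobulin family, with 1.44, 1.17 and 3.18 CPM in wt and 0.155, 0.734 and 0.616 CPM in hnRNP L deficient libraries. Its log2 fold change of -1.94 (SE 0.63, edgeR adjusted p = 0.07) was similar in size to those of the members. The other 9, among them *Acbd4*, *Ccndbp1* and *Nipal2*, were likewise highest in wt replicate 3 and lowest in hnRNP L deficient replicate 1 but had smaller log2 fold changes, between -0.81 and -0.14.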

How the data were processed

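Stranded mRNA libraries of sorted Lin- c-Kit+ FL cells from 3 wt and 3 hnRNP L deficient embryos were sequenced from both ends. Alignment to GRCm38 used Tophat 2.0.10, HTSeq assigned reads to Ensembl genes and the DEXSeq script to exon bins, and the authors deposited both as raw counts, a file for each embryo. The Ensembl release and the options of the counting are not given in the sources used here, so reads of near-identical or overlapping genes may have been lost or shared. Of all reads in the deposited gene counts, between 39.8% and 44.7% did not align uniquely, between 5.87% and 8.37% lay on no feature and between 0.245% and 0.275% were ambiguous. These were left out.

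Genotypes were taken from the sample labels, and replicates were numbered in the order of deposit. Gene counts were normalized by TMM, filtered with filterByExpr (14396 genes kept) and compared by the quasi-likelihood test of edgeR 4.0.16 in R 4.3.3, with robust estimation, no covariate and Benjamini-Hochberg adjustment over all genes. A gene was called at an adjusted p-value under 0.05. CPM use the TMM-normalized library size, and an SE is the size of the log2 fold change over the root of its F statistic. Deviations used log2(CPM + 0.1). Each CPM has a counting floor of 3 reads, and the spread between embryos limited most comparisons. The fit was tested on simulated data. Positions, merged exon lengths and symbols are from GENCODE M21, and 94.9% of the genes counted had a symbol. Promoters are from RefSeq (GRCm38.p6). Alternatives were DESeq2 1.42.0, limma-voom (limma 3.58.1) with sample weights, other normalizations and filters, no robust estimation, a pseudocount of 0.5 CPM and leaving out each library.

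The members, the other lists and the motifs were chosen with earlier results of these data known. Members were named with all their values if called, or if they had the highest level per kb or the largest fold change of their role. Of the other lists, the 3 genes of highest level and at most 4 called genes of smallest p-value could be named, and *Apoc1*, *Trf*, *Afp*, *Fgb*, *Apom* and the other members beyond the rule are given as values only. 1 called gene of the other lists is not reported here by name.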

Additional observations from a re-analysis of the deposited data

How the results depend on the processing

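None of the 33 members tested changed direction under another normalization, filter or tool, and their median log2 fold change lay between -1.79 and -1.15 in all 14 alternative fits. The call of single members was far less stable. The 5 members called lower became 22 with DESeq2 and 20 with limma-voom, and ranged from 0 to 12 when a library was left out. The share of all genes tested that was called lower was 9.85% in the main fit, 10.7% with DESeq2 and 19.3% with limma-voom. The 25 genes of the other lists called lower became 38 with DESeq2 and 40 with limma-voom, and ranged from 0 to 29 when a library was left out, and the 3 called higher ranged from 0 to 3. The log2 fold change of *Hnrnpl* ranged from -1.05 to -0.94 when a library was left out, with an adjusted p-value of up to 0.085 by edgeR. With a library left out, the log2 fold change of *C3* ranged from -2.25 to 0.36, turning positive without wt replicate 2, and that of *Apom* was 0.24 without wt replicate 3. Calls over all genes were nearly absent in the edgeR fits without wt replicate 3 or without a hnRNP L deficient library, and the cause was not tested beyond the smaller number of libraries. *Kit*, *Gc*, *Hp*, *Ass1*, *Cebpa* and *Csf1r*, for which alternatives were added after seeing the data, kept their direction in all of them. *Gc* lost its call without wt replicate 1 (edgeR adjusted p = 0.066), *Csf1r* lost it without the filter (edgeR adjusted p = 0.087), and *Kit*, *Gc*, *Ass1* and *Csf1r* lost it without wt replicate 3 or any hnRNP L deficient library. Without robust estimation, *Krt18* and *Ttr* were not called and *Alb* was (edgeR adjusted p = 0.049). Without the filter, *Apoe* was not called (edgeR adjusted p = 0.10).

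No paired analysis was possible because the embryo numbers in the labels have a beginning in common for only 1 wt and 1 hnRNP L deficient library. With between 202 and 43910 reads over the 6 libraries for a tested member, counting error was small for *Alb*, *Afp*, *Apoe* and *C3* and mattered for those near the lower limit, such as *Serpina1a* and *Krt8*, and for the members that could not be tested.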
